A study of Mus musculus with 8 samples.

Results

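The circadian clock of the intestinal epithelium was examined through 9 genes of the clock and its output: Arntl, Npas2, Per1, Per2, Per3, Nr1d1, Nr1d2, Dbp and Tef. They were chosen by gene symbol from the 25239 genes of the count table, with earlier results of these data known. All 9 were present and passed the low-count filter, so that each was tested. Epithelial cells of the proximal small intestine were sorted from mice lacking CD1d (genotype CD1d1/2 KO, called CD1d-KO) and from C57BL/6Jax mice (called WT), and their mRNA was sequenced. Lipid antigens are shown to NKT (natural killer T) cells by CD1d, and mice without it have none of these cells. The comparison asks how the epithelial transcriptome differs without CD1d and NKT cells. There were 4 samples per genotype, each of 150000 cells with no treatment given, collected in 2 experiments. The labels do not say which sample came from which experiment. According to the methods, the samples came from 4 mice of each genotype, mice of both sexes aged 7 to 10 weeks were used, and the cells were a crypt-enriched duodenal preparation that had been through steps at 37 °C. The knockout is of the whole animal and not of the epithelium alone. The authors state that the mice were not littermates, which may affect their gut microbiota. They also report altered natural killer cells of the lamina propria and intraepithelial T cells in CD1d-KO. Effects of litter, microbiota or other immune cells cannot be told apart here from those of lacking CD1d and NKT cells. The hour of collection, the light schedule and the feeding schedule are not given in the sources used here. A difference in the hour at which the genotypes were collected and a difference in their clocks therefore cannot be told apart.

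The clock is a feedback loop of transcription. BMAL1 (the product of Arntl) pairs with CLOCK or its relative NPAS2, binds E-boxes and switches on the Per, Cry, Nr1d1, Nr1d2, Dbp and Tef genes. PER and CRY proteins return to inhibit the pair, and the REV-ERB receptors (from Nr1d1 and Nr1d2) repress Arntl and Npas2. DBP and TEF carry the rhythm outwards by binding D-boxes in genes of metabolism and transport. In peripheral tissues of the mouse Arntl and Npas2 transcripts are high around the end of the night, Nr1d1 follows in the day, Dbp, Tef, Per3 and Nr1d2 come later in the day, and Per1 and Per2 are high around dusk. The clock of the gut is set strongly by the time of feeding.

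Promoter sequences are shown where the letters of a clock motif were found. These are matches of letters, and binding or function at them was not tested. RefSeq promoter windows (build GRCm38.p6, the 250 bases before each start) were found for 8 of the 9 genes, in 11 windows. Both strands were searched for the E-box CACGTG, the D-box TTATGTAA or TTACGTAA, and the RORE core TAGGTCA or TGGGTCA. Each stretch below is written 5′ to 3′ on the strand of its gene, with the motif in capitals. The E-box of Per1 lies 166 bases before its first start, within chr11:69098743-69098828 on the plus strand. The window before its other start (chr11:69099902-69100151) held none of the motifs. Per3 carries a pair of D-boxes, 205 and 158 bases before its start, within chr4:151044776-151044910 on the minus strand. Tef has an E-box before each of its starts, 127 bases before the first (chr15:81802506-81802591) and 138 bases before the other (chr15:81811236-81811321), both on the plus strand.
Per1: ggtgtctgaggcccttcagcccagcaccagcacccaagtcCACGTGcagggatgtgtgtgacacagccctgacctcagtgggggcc
Per3: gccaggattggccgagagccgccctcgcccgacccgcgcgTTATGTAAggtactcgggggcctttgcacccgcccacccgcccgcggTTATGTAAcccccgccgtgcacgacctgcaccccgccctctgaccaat
Tef, first start: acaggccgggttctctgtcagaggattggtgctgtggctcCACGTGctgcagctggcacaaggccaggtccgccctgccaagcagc
Tef, other start: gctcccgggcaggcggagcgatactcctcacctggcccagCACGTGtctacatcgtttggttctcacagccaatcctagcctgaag
Of 32851 windows of the same length, 6.02% held the E-box, 0.931% a D-box and 5.38% the RORE core. The windows of the other matched members (Arntl, Npas2, Nr1d1, Nr1d2 and Dbp) held none of these letters, which says only that they are not in these windows.

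The libraries held between 23610266 and 31629435 counts assigned to genes. Cd1d1, the targeted gene, had normalised counts of at most 7.15 in CD1d-KO and of at least 61.1 in WT. The 10 epithelial markers, such as Epcam and Vil1, summed to between 314740 and 343361 in CD1d-KO and between 306806 and 346312 in WT. Features of the libraries moved with genotype, and their part in the results below was not tested except where a fit is given. Only CD1d-KO replicates 1 and 2 held Y-linked counts (5574 and 6946, at most 1.05 in the other 6 libraries), although the methods state that sex was matched between genotypes. Summed stomach markers were 831 to 1740 in CD1d-KO and 2686 to 17797 in WT, with 6 of the 13 tested genes lower and 1 higher in CD1d-KO and Sox2 at 0 in all 4 CD1d-KO libraries. Summed leukocyte markers were 833 to 980 and 1051 to 2339, with 4 of 13 tested genes lower and Cd4 at 0 in all 4 CD1d-KO libraries. Itgam was the largest part of each sum (678 to 848 in CD1d-KO and 844 to 1169 in WT). Enterocyte markers summed to 115575 to 180655 in CD1d-KO and 112700 to 141184 in WT, with 10 of 10 differences positive and 0 called. The 9 fibroblast and endothelial markers summed to 52.4 to 94.2, mostly from Vwf (34.2 to 64.8) and Pecam1 (6.29 to 29.5), with Cdh5 at 0 in CD1d-KO, and the 5 erythroid markers were at 0 in all 8.

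Of the 9 clock genes, Tef was higher in CD1d-KO by the DESeq2 test and the other 8 did not pass it. The members called were thus 1 of 9 (11.1%), beside 4.03% of the 15446 genes tested (1.65% higher and 2.38% lower). Before adjustment 4 of 9 (Nr1d1, Nr1d2, Dbp and Tef) had p under 0.05, beside 15.3% of all genes tested. The difference was positive in 6 members and negative in 3, with a median log2 fold change of 0.27, where the median of all genes tested was 0.00. The median size regardless of sign was 0.27 for the members and 0.11 for all genes. In none of the 9 did the genotypes separate without overlap, where 9.61% of all genes tested did (4.09% higher and 5.52% lower in CD1d-KO). The members were chosen with earlier results of these data known, so these shares and medians describe them and are no test of clock genes. None of the 9 lies on chromosome 3, which carries the targeted locus.

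**Figure D1:**
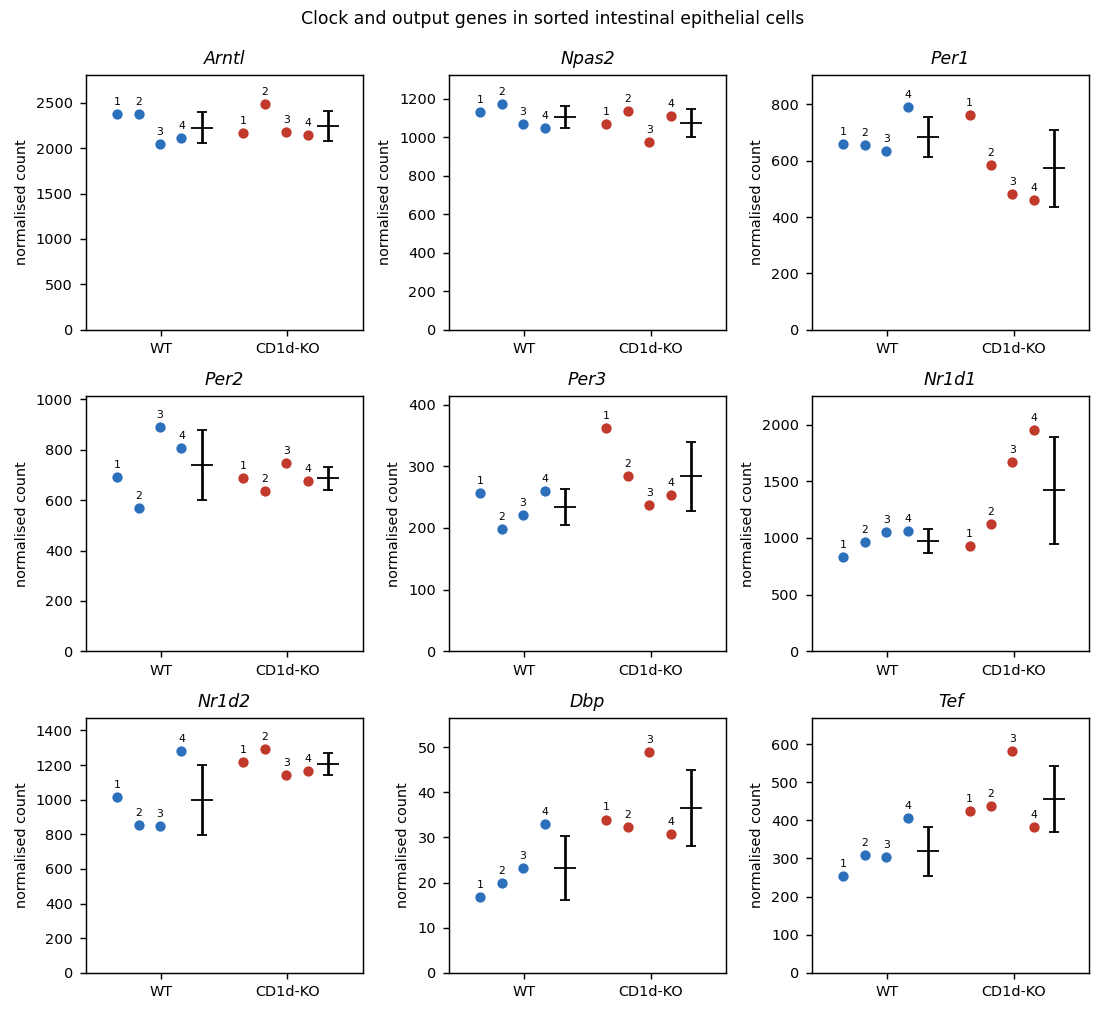
Normalised counts (y axes, from 0) of the 9 clock genes in each WT (blue) and CD1d-KO (red) sample, numbered by replicate, with the mean and SD of each genotype in black (n = 4). WT and CD1d-KO points overlap in every panel, Arntl and Npas2 are level, and Nr1d1 spreads from 932 to 1954 among the CD1d-KO samples.

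Per kilobase of exon, Arntl was the most abundant of the 9 transcripts (767 ± 55.7 normalised counts per kilobase in CD1d-KO and 761 ± 59.6 in WT, SD, n = 4). Nr1d1 was next, at 513 ± 171 and 353 ± 38.1. Npas2 (257 ± 17.0 and 264 ± 13.9) and Nr1d2 (260 ± 14.03 and 215 ± 43.9) stood at levels that did not differ beyond their spread. Per1 (121 ± 29.1 and 145 ± 15.1), Per2 (118 ± 7.76 and 127 ± 23.8) and Tef (102 ± 19.4 and 71.4 ± 14.2) were lower, and among these 3 neighbours the levels of Per1 and Per2 overlapped in both genotypes. Per3 (46.9 ± 9.16 and 38.6 ± 4.92) and Dbp (21.7 ± 4.98 and 13.8 ± 4.21) were the least abundant. For Dbp this corresponds to raw counts of only 17 to 50 per library, so that its differences are the least precise of the 9. The exon length includes bases shared with another gene (32.1% for Dbp and 9.51% for Nr1d1), from which no pairs were counted. The per-kilobase levels of these 2 genes are therefore underestimates.

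The activators did not differ detectably. Arntl (chr7:113207465-113314126, plus strand) encodes BMAL1, the partner without which the loop does not run. Its normalised counts were 2164, 2490, 2181 and 2149 in CD1d-KO replicates 1 to 4 and 2379, 2377, 2049 and 2109 in WT replicates 1 to 4. The ranges overlap almost entirely, and the log2 fold change was 0.01 ± 0.08 (SE, 95% interval -0.15 to 0.17, DESeq2 adjusted p = 0.978). Npas2 (chr1:39194272-39363240, plus strand) encodes a BMAL1 partner that can stand in for CLOCK. It was measured at 1070, 1138, 975 and 1109 in CD1d-KO against 1131, 1174, 1069 and 1047 in WT. Its log2 fold change was -0.04 ± 0.08 (95% interval -0.20 to 0.11, DESeq2 adjusted p = 0.882), so that the intervals of both activators leave room for differences no larger than 0.20 on the log2 scale.

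The 3 Period genes, whose proteins inhibit the activators together with the cryptochromes, did not move in one direction. Per1 (chr11:69098949-69109957, plus strand), which also responds quickly to glucocorticoids and other acute stimuli, was measured at 761, 586, 481 and 462 in CD1d-KO against 659, 656, 635 and 791 in WT. CD1d-KO replicates 2 to 4 lay below every WT sample and CD1d-KO replicate 1 lay above 3 of the 4. The log2 fold change was -0.26 ± 0.15 (95% interval -0.55 to 0.04, DESeq2 adjusted p = 0.431). Without CD1d-KO replicate 1 it was -0.42 with an adjusted p of 0.0242 in DESeq2, and without both libraries that held Y-linked counts it was -0.54 (adjusted p = 0.00388). Without CD1d-KO replicate 4 it was -0.17 (adjusted p = 0.696), and without CD1d-KO replicate 3 or WT replicate 4 it was -0.18. The Per1 value therefore turns on the samples that enter the fit, CD1d-KO replicates and WT replicate 4 among them.

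Per2 (chr1:91415982-91459328, minus strand), a period gene whose loss alters behavioural rhythms, was measured at 688, 636, 746 and 676 in CD1d-KO against 691, 569, 889 and 806 in WT. All CD1d-KO values lay inside the WT range, and the log2 fold change was -0.11 ± 0.13 (95% interval -0.36 to 0.15, DESeq2 adjusted p = 0.805). Per3 (chr4:151003655-151044665, minus strand), which is dispensable for the loop itself and follows its output, had counts of 361, 284, 237 and 253 in CD1d-KO against 257, 198, 220 and 259 in WT. CD1d-KO replicates 1 and 2 were above every WT sample, and these are the libraries with Y-linked counts. The log2 fold change of Per3 was 0.28 ± 0.16 (95% interval -0.03 to 0.59, DESeq2 adjusted p = 0.400), and it was 0.07 without those libraries (adjusted p = 0.951).

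Both REV-ERB genes had higher means in CD1d-KO without passing the test. Nr1d1 (chr11:98767932-98775377, minus strand) encodes REV-ERBα, the main repressor of Arntl and a regulator of lipid uptake in the gut. Its counts were 932, 1124, 1666 and 1954 in CD1d-KO against 833, 960, 1052 and 1058 in WT. CD1d-KO replicates 2 to 4 were above every WT sample, and the CD1d-KO samples differed from each other 2.10-fold where the WT samples differed 1.27-fold. With means of 1419 ± 473 and 975 ± 105 (SD, n = 4), the log2 fold change was 0.54 ± 0.25 (95% interval 0.05 to 1.03, DESeq2 adjusted p = 0.262).

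The Nr1d1 difference was past the threshold in 5 of 17 alternative settings, all with the same sign. Without CD1d-KO replicate 1 it was 0.70 (adjusted p = 0.00109 in DESeq2), and without CD1d-KO replicate 4 it was 0.35 (adjusted p = 0.306). Without both libraries with Y-linked counts it was 0.89 (adjusted p = 1.94e-10), and with the stomach marker score in the fit 1.20 (adjusted p = 0.00427). The fit without the Y-linked libraries compares WT with CD1d-KO replicates 3 and 4 alone, which held the highest Nr1d1 values of the series. The fit with Y-linked counts as a covariate, also among the 5, makes in effect the same contrast. The stomach marker score did not overlap between genotypes (-2.65 to 0.19 in CD1d-KO, 0.80 to 3.53 in WT). Genotype and score can therefore hardly be told apart in that fit.

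Nr1d1 and Per1 stood in opposite order among the CD1d-KO samples. The log2 ratio of Nr1d1 to Per1, a quantity that needs no scaling between libraries, was 0.29, 0.94, 1.79 and 2.08 in CD1d-KO replicates 1 to 4. In WT it lay between 0.34 and 0.73. CD1d-KO replicate 1 was thus at the low end of WT and the other 3 were above all of WT. The means were 1.28 ± 0.82 and 0.51 ± 0.17 (SD, n = 4), given without a test, since this ratio was chosen after its values were seen.

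Nr1d1 shares 263 bases of exon (9.51% of its exon length) with Thra, the gene of the thyroid hormone receptor α, which is read from the opposite strand. Thra was lower in every CD1d-KO sample. Its counts were 2637, 2712, 2546 and 2737 in CD1d-KO against 3966, 3956, 3776 and 3801 in WT, with the genotypes far apart and little spread in either. The log2 fold change was -0.54 ± 0.05 (DESeq2 adjusted p = 2.25e-21), and it was past the threshold in all 17 alternative settings (-0.56 to -0.52). CD1d-KO replicates 1 and 4, at the extremes of Nr1d1 in that genotype, had Thra counts of 2637 and 2737. In WT, replicates 1 and 2, with the lower Nr1d1, had the higher Thra. Read pairs were counted without regard to strand, and pairs that overlapped both genes were left out of both, so that pairs from the shared bases are in neither value.

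**Figure D2:**
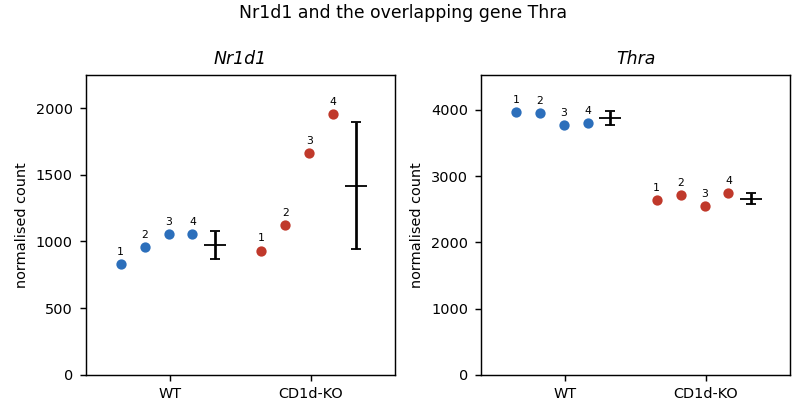
Normalised counts (y axes, from 0) of Nr1d1 and of Thra, whose exons overlap on opposite strands, in each WT (blue) and CD1d-KO (red) sample, numbered by replicate, with mean and SD in black (n = 4). Thra is near 2658 in all CD1d-KO samples and near 3875 in all WT samples, while Nr1d1 ranges from 932 to 1954 within CD1d-KO.

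Nr1d2 (chr14:18204056-18239106, minus strand) encodes REV-ERBβ, which shares the repressor role. It was measured at 1219, 1292, 1145 and 1167 in CD1d-KO against 1017, 853, 847 and 1281 in WT. The CD1d-KO samples were close together and above WT replicates 1 to 3, and WT replicate 4 stood among them. The log2 fold change was 0.27 ± 0.13 (95% interval 0.03 to 0.52, DESeq2 adjusted p = 0.253), and without WT replicate 4 it was 0.41 (adjusted p = 0.00178).

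The PAR bZIP genes Dbp and Tef had, with Nr1d1, the 3 largest positive differences of the 9. Tef (chr15:81802673-81826863, plus strand), an activator of D-box genes, rose 1.44-fold in CD1d-KO. Its counts were 425, 438, 582 and 383 in CD1d-KO against 254, 310, 303 and 406 in WT. CD1d-KO replicates 1 to 3 were above every WT sample, and CD1d-KO replicate 4 was below WT replicate 4. With means of 457 ± 86.4 and 318 ± 63.4 (SD, n = 4) the log2 fold change was 0.52 ± 0.16 (95% interval 0.20 to 0.84, DESeq2 adjusted p = 0.0389).

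The Tef call was close to the threshold. It was kept in 7 of 17 alternative settings and lost in 10, with log2 fold changes between 0.39 and 0.66 in all of them. Leaving out 1 library ended the call for 6 of the 8, with adjusted p in DESeq2 up to 0.164 (without WT replicate 1), and edgeR's quasi-likelihood test gave an adjusted p of 0.134. The 6 libraries were CD1d-KO replicates 1, 2 and 3 and WT replicates 1, 2 and 3. Without the libraries with Y-linked counts the log2 fold change was 0.60 (adjusted p = 0.0840 in DESeq2). With the stomach marker score in the fit it was 0.45 (DESeq2 adjusted p = 0.733). That score did not overlap between genotypes, so the fit can hardly separate it from genotype.

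Dbp (chr7:45705247-45710203, plus strand) encodes the D-box activator with the steepest daily rhythm of the output genes. Its normalised counts were 34.0, 32.4, 48.9 and 30.7 in CD1d-KO against 16.7, 19.9, 23.3 and 33.0 in WT. WT replicates 1 to 3 were below every CD1d-KO sample and WT replicate 4 stood among them. The log2 fold change was 0.66 ± 0.33 (95% interval 0.02 to 1.31, DESeq2 adjusted p = 0.305), and in 0 of 17 alternative settings did it pass. Dbp shares 539 bases (32.1% of its exon length) with Sphk2 on the opposite strand, and pairs from these bases are in neither value. Sphk2 was level (2926 ± 42.9 in CD1d-KO and 2929 ± 194 in WT, DESeq2 adjusted p = 0.996).

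**Figure D3:**
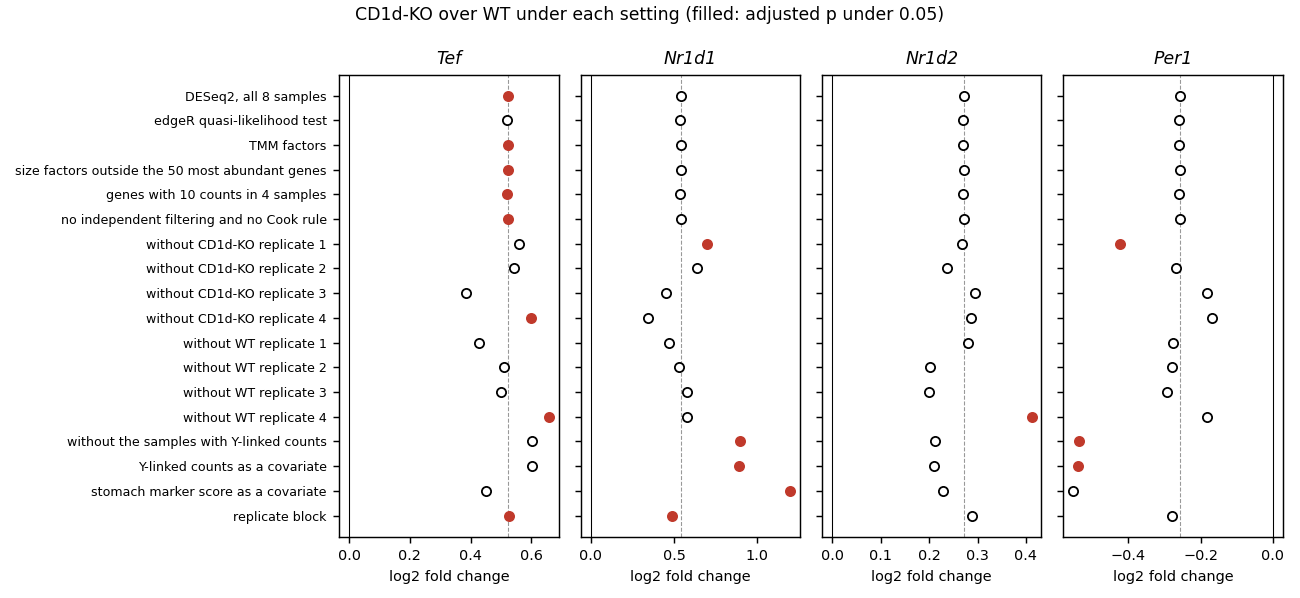
Log2 fold change (x axes, CD1d-KO over WT) of Tef, Nr1d1, Nr1d2 and Per1 in the DESeq2 fit of all 8 samples (top) and in each of 17 alternative settings, filled where the adjusted p is under 0.05. The sign holds in every row, while the calls of each gene depend on the setting, with Tef filled in 7 of the 17 alternatives and Nr1d1 in 5.

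Ordered by the time of day at which their transcripts are textbook highs, the members gave the following pattern. Those of the end of the night, Arntl and Npas2, had log2 fold changes of 0.01 and -0.04. Nr1d1, next in the day, stood at 0.54. Those of the later day stood at 0.66 (Dbp), 0.52 (Tef), 0.28 (Per3) and 0.27 (Nr1d2), and those of dusk at -0.26 (Per1) and -0.11 (Per2). The 5 genes of the day were thus all positive and the 4 others lay between -0.26 and 0.01, with the test passed by Tef alone. The hours at which the samples were collected are not stated, and a phase cannot be read from these values.

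The log2 ratio of Dbp to Arntl, genes that peak at nearly opposite times, was -5.99, -6.26, -5.48 and -6.13 in CD1d-KO replicates 1 to 4. In WT replicates 1 to 4 it was -7.16, -6.90, -6.46 and -6.00. WT replicate 4 lay inside the CD1d-KO range and the other 3 WT samples below it. The mean ratio was -5.97 ± 0.34 in CD1d-KO and -6.63 ± 0.51 in WT (SD, n = 4), a difference of 0.66 that ranged from 0.49 to 0.87 as each library was left out, given without a test.

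WT replicate 4 was the highest WT sample in 6 of the 9 members (Per1, Per3, Nr1d1, Nr1d2, Dbp and Tef). It was also the shallowest library, with 23610266 counts. Among CD1d-KO samples no replicate held that place throughout, as replicates 2 and 3 were highest in 3 members each, replicate 1 in 2 and replicate 4 in 1. CD1d-KO replicate 4 was the lowest of its genotype in 4 members (Arntl, Per1, Dbp and Tef).

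The other clock genes showed no call. Of 18 genes listed, 17 were tested (all but Rorb). DESeq2 called 0, beside 4.03% of all genes tested, and edgeR called 0. Rora alone (5.88%) had an unadjusted p under 0.05 in DESeq2, beside 15.3% of all genes tested. At these shares a count of 0 among 17 says little about these genes. Clock, the usual partner of BMAL1, was 4528 ± 435 in CD1d-KO and 4204 ± 325 in WT (SD, n = 4), a log2 fold change of 0.11 ± 0.09. The cryptochromes, which inhibit together with PER, stood at -0.09 ± 0.15 (Cry1) and 0.16 ± 0.14 (Cry2). Nfil3, whose product competes with DBP and TEF for the D-box, stood at -0.15 ± 0.16, and Hlf, the third PAR bZIP gene, at 0.23 ± 0.36. The median log2 fold change of the 17 was 0.10.

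Rora, an activator at the RORE, had the largest positive difference of these genes at a low level. Its counts were 47.4, 21.0, 25.4 and 14.4 in CD1d-KO against 13.7, 11.5, 11.6 and 8.56 in WT, and the lowest CD1d-KO sample was above the highest WT sample. The log2 fold change was 1.25 ± 0.46 (DESeq2 adjusted p = 0.107), and it was past the threshold in 0 of 17 alternative settings. Rora is also expressed in lymphocytes, and the part of such cells in its values was not tested. Summed leukocyte markers were at most 980 in CD1d-KO and at least 1051 in WT. Itgam was the largest part of these sums, so they do not measure lymphocytes alone.

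**Figure D4:**
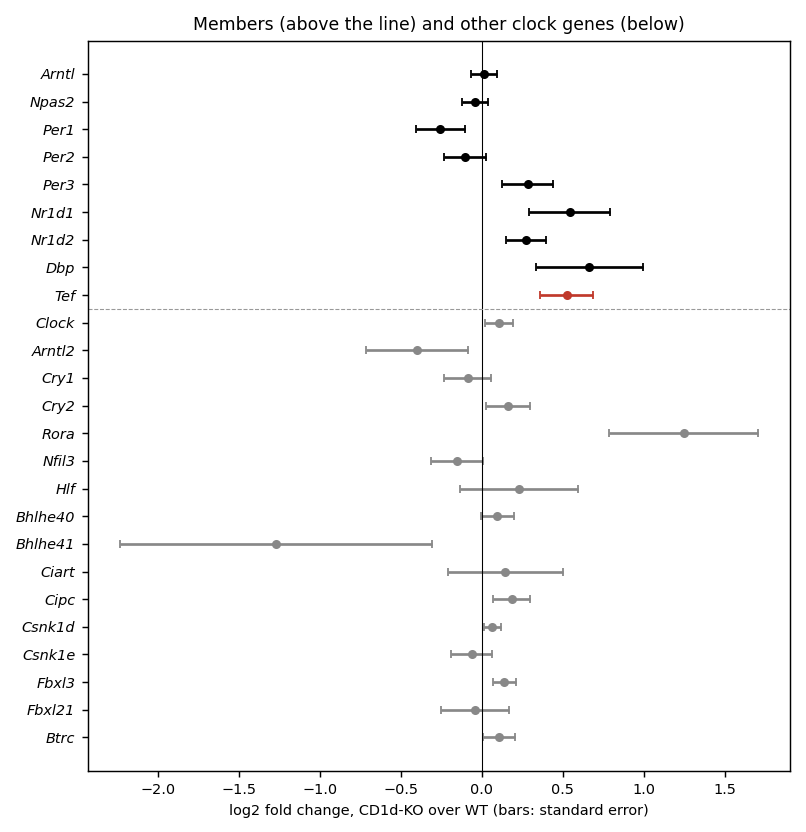
Log2 fold change (x axis, CD1d-KO over WT, point) with its standard error (bar) for the 9 members above the dashed line and other clock genes tested below it, with Tef in red as the only gene called. Dbp, Nr1d1 and Tef stand between 0.52 and 0.66, Arntl and Npas2 at about 0, and the other clock genes shown within 0.20 of 0 except Arntl2, Rora, Hlf and Bhlhe41.

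Genes that the clock is known to drive in liver or gut were read from the same fit. Of 18 such output genes, 4 (22.2%) were higher in CD1d-KO and 0 were lower, beside 1.65% higher among all genes tested. The median log2 fold change of the list was 0.15. The list was chosen with earlier results of these data known, so its share describes the list and is no test of clock outputs. The 4 serve detoxification and lipid uptake. Abcb1a, an efflux pump for drugs and xenobiotics at the enterocyte surface, was measured at 6421, 6733, 5972 and 4681 in CD1d-KO against 3585, 4531, 3511 and 3655 in WT, with no overlap (log2 fold change 0.64 ± 0.12, DESeq2 adjusted p = 1.17e-05). Cyp2b10, a cytochrome P450 that is a target of the xenobiotic receptor CAR, was 868, 1409, 2227 and 1078 in CD1d-KO against 491, 660, 490 and 468 in WT. It did not overlap either (1.40 ± 0.32, adjusted p = 0.000869 in DESeq2).

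Cd36, a fatty acid translocase, was 359, 531, 523 and 632 in CD1d-KO against 216, 348, 341 and 242 in WT, without overlap (0.83 ± 0.19, DESeq2 adjusted p = 0.000987). Cyp3a11, the main drug-metabolising P450 of the mouse gut and liver, was 769, 1235, 1616 and 1115 in CD1d-KO against 648, 793, 542 and 421 in WT. CD1d-KO replicate 1 lay below WT replicate 2, and the log2 fold change was 0.98 ± 0.28 (DESeq2 adjusted p = 0.0218). Abcb1a, Cyp2b10 and Cd36 were each called in 16 of 17 alternative settings and Cyp3a11 in 11. With the stomach marker score in the fit, Abcb1a was 0.17 (adjusted p = 0.852), Cyp2b10 0.92 (adjusted p = 0.727) and Cyp3a11 0.59 (adjusted p = 0.847). Summed stomach markers did not overlap between the genotypes. These 4 genes are also expressed in mature enterocytes. Summed enterocyte markers overlapped between genotypes (115575 to 180655 in CD1d-KO and 112700 to 141184 in WT), and the part of enterocyte content in these values was not tested.

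**Figure D5:**
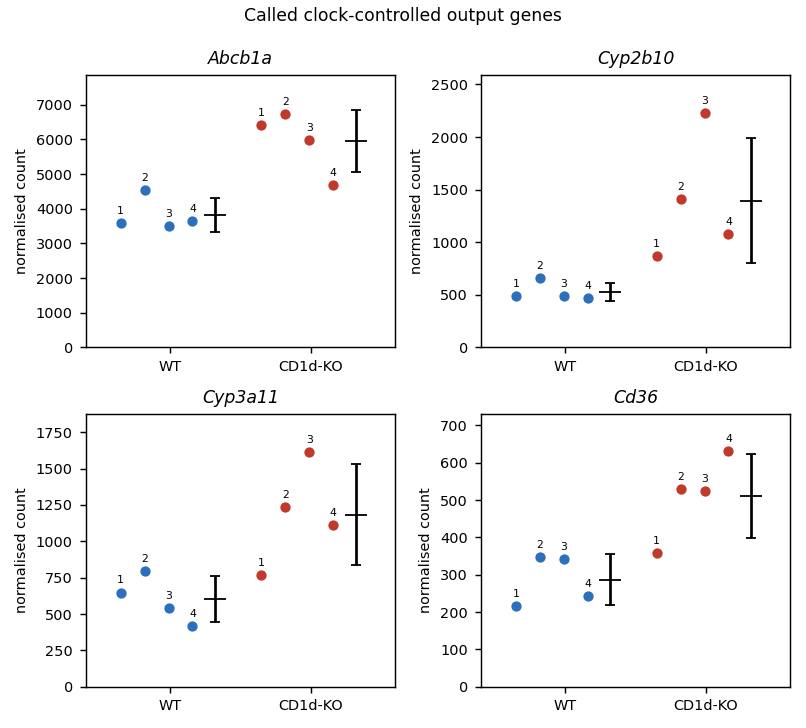
Normalised counts (y axes, from 0) of the 4 clock-controlled output genes that were called, in each WT (blue) and CD1d-KO (red) sample, numbered by replicate, with mean and SD in black (n = 4). Abcb1a, Cyp2b10 and Cd36 do not overlap between genotypes, and Cyp3a11 overlaps at CD1d-KO replicate 1 (769) and WT replicate 2 (793).

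The remaining 14 output genes did not pass the test. Usp2 and Wee1, textbook targets of BMAL1, stood at -0.08 ± 0.09 and 0.18 ± 0.10, and Nampt, of the NAD salvage pathway, at -0.08 ± 0.10. Por and Alas1, which supply electrons and heme to the P450 enzymes, stood at 0.18 ± 0.09 and -0.09 ± 0.11. Nr1i3, the gene of CAR and itself a target of the PAR bZIP factors, stood at 0.12 ± 0.10. Of the nutrient transporters, Slc5a1 (glucose) stood at 0.01 ± 0.11, Slc15a1 (peptides) at 0.39 ± 0.32 and Slc2a5 (fructose) at 0.16 ± 0.15. Slc9a3, the sodium and proton exchanger, had the largest negative value of the list, -0.68 ± 0.23 (DESeq2 adjusted p = 0.0710). It was called lower in 3 of the 8 fits with 1 library left out (without CD1d-KO replicate 4, WT replicate 2 or WT replicate 4), so that the single direction of the called output genes holds in the fit of all samples and not in those.

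Per1 is also known to respond to stress hormones and to acute handling, and the values of genes with such responses are given beside it. Their part in the clock gene values was not tested. Of 8 glucocorticoid-induced genes, listed with earlier results of these data known, 7 were tested. The other, Zbtb16, was given no p by DESeq2's outlier rule. Its counts were 8.94, 13.3, 14.7 and 139 in CD1d-KO against 12.8, 9.43, 12.6 and 26.9 in WT, so that CD1d-KO replicate 4 stood far above the rest. Of the 7 tested, 1 (14.3%) was called, beside 4.03% of all genes tested, and 4 (57.1%) had an unadjusted p under 0.05, beside 15.3%. The 4 did not share a direction, as Fkbp5, Sgk1 and Errfi1 (0.24 ± 0.10) were higher and Cebpd was lower in CD1d-KO. Cebpd, a transcription factor gene, fell in CD1d-KO, with counts of 208, 263, 136 and 163 against 399, 353, 270 and 450 in WT and no overlap (log2 fold change -0.93 ± 0.21, DESeq2 adjusted p = 0.000548, called in 17 of 17 alternative settings). Tsc22d3, Fkbp5, Sgk1 and Klf9, the receptor's classical targets, stood at 0.08 ± 0.10, 0.36 ± 0.14, 0.37 ± 0.16 and 0.15 ± 0.11, none called. Fkbp5 was called higher in 6 of 17 alternative settings, among them the fit without the libraries with Y-linked counts (0.58, DESeq2 adjusted p = 0.00144) and that with the stomach marker score (0.88, adjusted p = 0.00928), both of which also called Nr1d1. Of the 12 immediate early genes, which dissociation of tissue induces, DESeq2 called 0, beside 4.03% of all genes tested, and edgeR called 0. None had an unadjusted p under 0.05 in DESeq2, beside 15.3% of all genes tested. Atf3 was the most extreme of them at -0.30 ± 0.18 (DESeq2 adjusted p = 0.430). Of the 8 temperature-responsive genes 0 were called, with 1 (12.5%) at an unadjusted p under 0.05, beside the same shares of all genes. That gene, Cirbp, a cold-induced RNA-binding protein, stood at 0.30 ± 0.12 (DESeq2 adjusted p = 0.158). At these shares, counts of 0 called among 12 or among 8 say little about these genes. The heat shock gene Hspa1a, named after its values were seen, was measured at 5986, 10372, 267 and 956 in CD1d-KO against 7257, 1945, 2786 and 12954 in WT. CD1d-KO replicates 1 and 2, the libraries with Y-linked counts and the lowest Nr1d1 of their genotype, stood far above CD1d-KO replicates 3 and 4. In WT, by contrast, replicate 4 held both the highest Hspa1a and the highest Nr1d1. Among the other heat shock genes of the list, Hspa1b, Dnajb1 and Hsp90aa1 had the same order in CD1d-KO. Hspa8 did not, and Hsph1 had the reverse order. Without the Y-linked libraries the log2 fold change of Hspa1a was -3.35 (DESeq2 adjusted p = 0.0377), in a fit that also called Nr1d1 and Per1.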

How the data were processed

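The deposited counts are whole read pairs per gene. Per the labels and methods, the authors trimmed reads, aligned them with HISAT2 and counted pairs over exons with featureCounts 1.6.4 (primary alignments, no strand option). The methods name GRCm39 for the alignment and the header of the count table names an mm10 (GRCm38) annotation, whose positions are printed here. Of 72 ribosomal protein genes on 19 chromosomes, 68 had a mean count above 1000. The aligner's version is not given in the sources used here. The counts were tested with DESeq2 1.42.0 in R 4.3.3 (design: genotype, Wald test, Benjamini-Hochberg adjustment over 15446 genes, adjusted p under 0.05). Normalised counts are counts divided by median-of-ratios size factors. Log2 fold changes were not shrunken. Low-count genes were left out by independent filtering. Fits were tested on simulated data with 15446 genes, where 63% of 100 genes changed by a log2 of 0.5 and 86% of 100 changed by 1 were recovered, with 26 false calls.

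There were 17 alternatives: edgeR 4.0.16, TMM factors, size factors outside the 50 most abundant genes, a minimum of 10 counts in 4 samples, no filtering, each of 8 libraries left out, the libraries with Y-linked counts left out or as a covariate, a stomach marker score as a covariate, and the replicate number as a block. Only CD1d-KO libraries held Y-linked counts, so the covariate fit gave in effect the contrast of leaving them out (Nr1d1 0.89 in both). Both are counted among the 17. No 2 libraries of a genotype agreed within sampling noise (chi-square per degree of freedom 9.74 to 37.2). Members and gene lists were chosen with earlier results of these data known. Named genes were the members, the called genes of each list (or the most extreme where none was called), the genes overlapping a member and those most like Dbp. Other genes named with values were chosen for their role after the values were seen. One gene of the other clock genes is not reported here by name or drawn. Figures were drawn with matplotlib 3.10.9.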

Additional observations from a re-analysis of the deposited data

Results flagged for a closer look

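In 5 of 38 groups of 4 samples 1 sample stood far from the other 3, by Dixon's test at the 95% level, where chance alone gives about 1 in 20. Among the members, Arntl in CD1d-KO replicate 2 (2490 normalised counts, the other 3 between 2149 and 2181) and Per1 in WT replicate 4 (791, the other 3 between 635 and 659) were such samples. Among the other genes named, they were Abcb1a in WT replicate 2 (4531 normalised counts), Cyp2b10 in WT replicate 2 (660) and Cirbp in CD1d-KO replicate 3 (831).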

How the results depend on the processing

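All genes called numbered 622. They were 228 with edgeR, 372 without the libraries with Y-linked counts, 100 with the stomach marker score and 323 to 646 as each library was left out. Of the members, where 1 was called, edgeR called 0, the fits without or adjusted for Y-linked counts 2 each, and the fits with 1 library left out 0 to 2. Both Y-linked fits make in effect the same contrast, since only CD1d-KO libraries held such counts. Called output genes (4) numbered 2 with edgeR, 1 with the stomach score and 3 to 5 with 1 library left out, where 1 (Slc9a3) was lower in 3 of those fits. Called glucocorticoid-induced genes (1) numbered 3 without Y-linked libraries, 3 with Y-linked counts as a covariate, 3 with the stomach score and 1 to 2 with 1 library left out. Called temperature-responsive genes (0) numbered 1 without, and 1 adjusted for, Y-linked counts, and 0 to 1 with 1 library left out. Other clock genes and immediate early genes stayed at 0 in all 17. The cause of these shifts was not tested. The sign changed for Arntl (-0.041 without Y-linked libraries, -0.042 with the covariate, -0.20 with the stomach score, and -0.042 to 0.043 with 1 library left out), for Per2 (0.24 with the stomach score) and for Sphk2 (-0.044 to 0.028 with 1 library left out), all of them uncalled. Of the other tested genes given with values, it changed for Slc5a1 in 4 settings, Nampt in 3, Cry1 and Tsc22d3 in 2 each, and Wee1, Alas1, Hlf and Hspa1a in 1 each. The median log2 fold change of all genes moved by under 0.1 under each scaling. Same-numbered samples of the genotypes had correlated deviations of 0.29, 0.03, 0.22 and 0.00 over genes, and not every sample correlated best with its own number, so the numbers were not taken to pair the samples. With the replicate block, 569 genes and 2 members were called (Tef, and Nr1d1 at 0.49), 2 glucocorticoid-induced genes were called, and Sphk2 stood at 0.000153. Depth limits Dbp most, with 17 to 50 counts per library.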

Other observations

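The genes whose log2 values followed Dbp most closely within genotypes, over 8 samples and among the 10933 genes whose normalised counts averaged 100 or more, were Farsa (Pearson r = 0.99), Gnl3l (0.98) and Prdx3 (0.97). Those most opposed to it were Gtpbp2 (-0.99), Col7a1 (-0.98) and Atg13 (-0.98). With 8 samples from shared sequencing runs and Dbp at 17 to 50 counts, these are descriptions of likeness only.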
